A study of Mus musculus with 4 samples.

Results

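The genes of the 4 classical axon guidance systems were followed in whole xenografts of sunitinib-treated and vehicle-treated mice: the semaphorins and their plexin receptors, the netrins and their Unc5 receptors, the Slits and their Robo receptors, and the ephrins and their Eph receptors. Members were taken by gene symbol from the platform annotation, which gave 133 probes for 67 genes among 45220 features and 19088 genes on the array. Of the 67 genes, 65 belonged to 11 families. The other 2, Unc50 and Unc5cl, matched by symbol alone and are not netrin receptors; they differed by -0.125 and -0.005 on the log2 scale (sunitinib minus vehicle). The tumours grew in immunodeficient mice from MDA-MB-231 cells, an established human line of triple-negative breast cancer. They fell into 2 groups, with 2 samples each, namely sunitinib (40 mg/kg/day) and vehicle. Sunitinib inhibits the receptor tyrosine kinases for VEGF and PDGF, among others. The series title speaks of withdrawal of the drug, but the labels do not say when the tumours were taken relative to the last dose, nor whether replicates were separate animals. Total RNA (0.5 µg per sample, RIN 9) was labelled with Cy3 and hybridised to single-colour arrays with mouse probes. By the array titles, each slide held 1 sunitinib and 1 vehicle sample of the same replicate number, and the slides are called slide 1 and slide 2 by that number. Sunitinib samples always took array 2 and vehicle samples array 1 of a slide, hence treatment and place on the slide cannot be told apart.

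Axon guidance cues were first studied in growing nerves, where a ligand on or from 1 cell attracts or repels the tip of an axon that carries its receptor. Blood vessels use the same molecules. Endothelial tip cells carry plexin D1 and Unc5b, endothelium carries Robo4, arteries carry ephrin-B2 and veins carry its receptor EphB4. These genes are therefore often read as vascular genes in a tumour. Many of them are also made by fibroblasts, pericytes, immune cells and nerves.

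The samples were pieces of whole tumour and not isolated vessels; the probes are of mouse design, and binding of human tumour transcripts to them was not tested. Fewer cells of a type and less RNA per cell cannot be told apart. Of 18 blood endothelial markers, all were measured and 17 were above the median level of all genes (9.08 on the log2 scale). The mean log2 level of the 18 markers was 11.30 and 11.01 on the sunitinib arrays, against 11.04 and 11.25 on the vehicle arrays, and the groups overlapped. Their median difference was 0.235 on slide 1 and -0.155 on slide 2. Cdh5 (VE-cadherin) read 12.58 and 11.74 under sunitinib, against 10.97 and 11.88 under vehicle. Vwf (von Willebrand factor) read 12.02 and 11.85 under sunitinib, against 12.70 and 12.63 under vehicle. The list median thus had opposite signs on the slides. Of the 18 markers, 11 were above 0, 5 were higher on both slides (Pecam1, Tek, Esam, Sox17 and Clec14a, by 0.06 to 0.205), and 1, Vwf, was lower on both (log2 difference -0.73, adjusted p = 0.352 in limma). The 4 arrays had like distributions, with medians of 8.89 to 8.90 and pairwise Pearson correlations of 0.970 to 0.984 across features.

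No member passed the test for a difference between sunitinib and vehicle. With limma and Benjamini-Hochberg adjustment over 43154 tested values, the smallest adjusted p of a member was 0.352, and 0 of 67 passed 0.05 in either direction. Over all 19088 genes, 0% passed as higher and 0.00524% as lower. The gene behind that share was Xist, the RNA of the inactive X chromosome, which read 8.97 and 8.96 under sunitinib, against 12.19 and 12.26 under vehicle (adjusted p = 0.00997 in limma). The Y-linked gene Eif2s3y read 10.21 and 10.02 under sunitinib, against 8.46 and 8.58 under vehicle. These 2 genes part the same arrays as the treatment does. Host sex, as read from these 2 genes, and treatment can thus not be told apart for any gene. Among the members, Plxna3, Plxnb3 and Efnb1 are X-linked. The part of sex in the results below was not tested.

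At an unadjusted p under 0.05 (limma, 2 arrays against 2), 2 of 67 members (2.99%) were higher with sunitinib, where 8.44% of all genes were, and 4 (5.97%) were lower, where 6.32% of all genes were. Both sunitinib arrays lay above both vehicle arrays for 17 members (25.4%), against 25.9% of all genes. Both lay below for 15 members (22.4%), against 22.3% of all genes. The sign was positive on both slides for 21 members and negative on both for 22, where 32% and 27.9% of all genes were. A difference of at least 0.3 log2 in either direction was seen for 9 members, where 16.2% of all genes had one. Leaving out 1 array moved the first counts, and with them the shares over all genes. Without sunitinib replicate 2, 4 members were higher (4.59% of all genes), and without vehicle replicate 1, 1 was (4.05% of all genes). Without sunitinib replicate 1, 7 members were lower (7.81% of all genes), and without vehicle replicate 2, 0 were (3.62% of all genes). With all 4 arrays the members' counts were near or under the share over all genes, except that the count lower on both slides was somewhat above it. The median log2 difference was 0.01 over the members and 0.005 over all genes, and the other 58 members lay between -0.245 and 0.27. The median size of a difference was 0.125 for members, and the median gap between the 2 arrays of a group was 0.13 with sunitinib and 0.13 with vehicle.

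**Figure D1:**
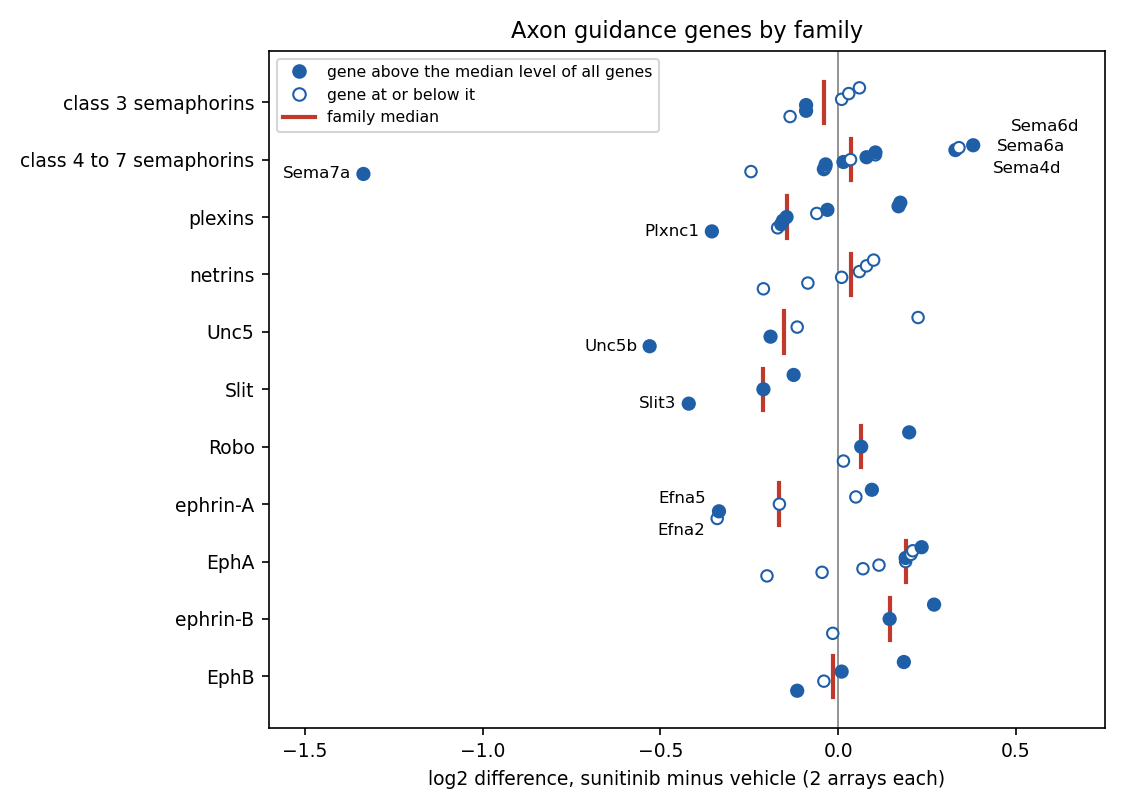
Log2 difference (sunitinib minus vehicle, 2 arrays each) of the 65 family genes by family, with 1 point per gene (brightest probe), filled where the gene's mean was above the median level of all genes, and a red bar at the family median. Most points lie within 0.3 of 0; Sema7a at -1.335 and Unc5b at -0.53 stand farthest to the left.

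By family, the median difference was lowest for Slit (-0.21, 3 genes), ephrin-A (-0.165, 5 genes), Unc5 (-0.152, 4 genes) and the plexins (-0.145, 9 genes). It was highest for the EphA receptors (0.19, 9 genes) and ephrin-B (0.145, 3 genes). After removal of the local trend of the arrays, Slit stood at -0.399 and Unc5 at -0.202, but ephrin-A at -0.026 and the plexins at -0.034. Without sunitinib replicate 2, Unc5 stood at -0.045, the plexins at -0.04 and Slit at -0.14, and without sunitinib replicate 1 Unc5 stood at -0.26, the plexins at -0.06 and Slit at -0.43. Without vehicle replicate 1, Unc5 stood at -0.087 and the plexins at -0.08. The class 3 semaphorins stood at -0.04 (6 genes), class 4 to 7 at 0.035 (13 genes), the netrins at 0.035 (6 genes), Robo at 0.065 (3 genes) and EphB at -0.015 (4 genes). Ligand families (36 genes) and receptor families (29 genes) had the same median, 0.01. Of the 67 members, 34 were above the median level of all genes, with no netrin among them. Among these 34, 1 was higher at an unadjusted p under 0.05 in limma and 4 were lower, where 11.1% and 7.66% of all genes above that level were. The members at or below that level differed by -0.34 to 0.34.

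A local feature of the arrays touches several results. The feature numbers give a layout of rows and columns, on which bright features were lower or higher together with their neighbours. Across the 4100 features with a log2 level of at least 11 that were not near saturation, the within-slide difference correlated with the median of nearby features of like brightness at 0.494 on slide 1 and 0.637 on slide 2. The features' own differences correlated at 0.263 between the slides. These correlations are across features that share arrays and positions, and are descriptions only. Each named gene is therefore also given after removal of its local trend, the median deviation of the 25 features of nearest level within 10 rows and 10 columns. This step was chosen after the values had been seen. With it, 2 members were higher at an unadjusted p under 0.05 in limma and 6 lower, where 6.6% and 6.6% of all genes were. The local median had the same sign as the gene's own difference in 45 of 67 members. Over the 18 blood endothelial markers, the median difference was 0.058 before and -0.033 after the removal. Cdh5, with a local median of 0.86 on slide 1, went from 0.735 to 0.185, and Vwf went from -0.73 to -0.758.

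Among semaphorins, the largest difference was that of Sema7a, a semaphorin anchored to the membrane by a lipid, which binds plexin C1 and beta-1 integrins. Its brightest probe read 13.54 and 12.26 on the sunitinib arrays, against 14.18 and 14.29 on the vehicle arrays. Both sunitinib arrays were below both vehicle arrays, and the second sunitinib array was far below the first. The log2 difference was -1.335 (SE 0.418, limma unadjusted p = 0.0249, adjusted p = 0.352), made of -0.64 on slide 1 and -2.03 on slide 2. The 38 bright features around it had a median difference of -0.11 on slide 1 and -1.165 on slide 2, and 36 of the 38 were lower on slide 2, while all bright features had a median of 0.06 there. Set against each feature's mean over the 4 arrays, these neighbours had a median deviation of -0.687 on the sunitinib array of slide 2 and 0.423 on its vehicle array. After removal of the local trend the Sema7a difference was -0.652 (SE 0.171, limma unadjusted p = 0.00843), with -0.465 on slide 1 and -0.84 on slide 2. It stayed below 0 on both slides. Without sunitinib replicate 2, the difference in the deposited values was -0.695, and without sunitinib replicate 1 it was -1.975.

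**Figure D2:**
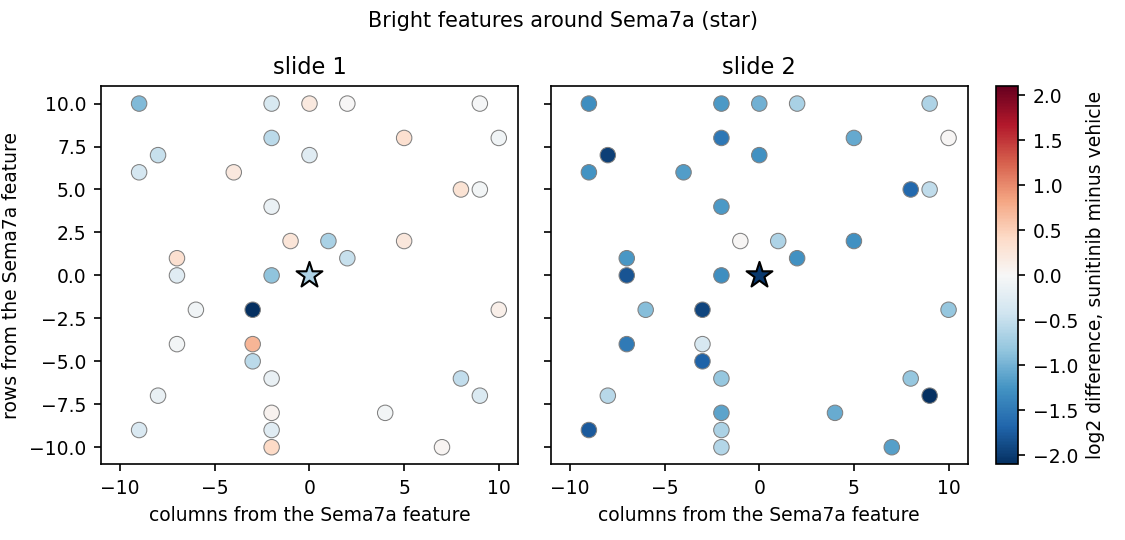
Bright features (log2 level of at least 11, those near saturation left out) within 10 rows and 10 columns of the Sema7a feature (star), on slide 1 (left) and slide 2 (right), with axes in rows and columns from Sema7a and colour for the log2 difference, sunitinib minus vehicle. On slide 2, 36 of 38 neighbours are lower with sunitinib, at a median of -1.165; on slide 1 the median is -0.11.

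Plxnc1, which encodes the plexin that receives Sema7a, read 9.70 and 9.07 under sunitinib, against 9.47 and 10.01 under vehicle. Its groups overlapped, and its difference was 0.23 on slide 1 and -0.94 on slide 2. The local median of Plxnc1 was -0.59 on slide 2. Its difference over both slides was -0.355 before and -0.026 after removal of the local trend. A dimmer Plxnc1 probe gave 0.14. Sema6d and Sema6a encode membrane semaphorins that signal through A-type plexins. Sema6d read 10.83 and 10.72 under sunitinib, against 10.28 and 10.51 under vehicle, a difference of 0.38 (SE 0.112, limma unadjusted p = 0.0204, adjusted p = 0.352). Its other 2 probes gave -0.02 and 0.26, and removal of the local trend left 0.285 (unadjusted p = 0.0505 in limma). Sema6a read 9.02 and 9.10 under sunitinib, against 8.73 and 8.71 under vehicle, below the median level of all genes. Its difference of 0.34 (limma unadjusted p = 0.0093) stood beside local medians of 0.24 on slide 1 and 0.215 on slide 2, and was 0.112 after their removal. The other 2 Sema6a probes, also dim, gave 0.395 and 0.08. After removal they gave 0.254 (unadjusted p = 0.0658 in limma) and 0.034. On the brightest probes of Sema6d and Sema6a the groups did not overlap in the deposited values.

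Sema4d, a semaphorin shed by immune and tumour cells that binds B-type plexins on endothelium, read 10.21 and 10.57 under sunitinib, against 9.96 and 10.16 under vehicle. The difference of 0.33 (limma unadjusted p = 0.0844) came with a local median of 0.438 on slide 1, and 0.058 was left after removal. With the slide as a block, the unadjusted p in limma was 0.0368 before and 0.701 after the removal. Sema4a differed by -0.04. The B-type receptors Plxnb2 and Plxnb1, the second of them dim, differed by -0.16 and -0.17; Plxnb1 differed by -0.034 after removal.

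On the brightest probes, the secreted class 3 semaphorins, which signal through neuropilin and plexin complexes, lay between -0.135 and 0.06 in the deposited values. On these probes Sema3a differed by 0.03, Sema3c by 0.01 and Sema3e, the ligand of plexin D1, by -0.135. Dimmer probes of the class ran from -0.27 for Sema3a to 0.30 for Sema3e (unadjusted p = 0.0133 in limma). A dimmer Sema3c probe gave 0.16. Sema3f read 9.74 and 9.75 under sunitinib, against 9.83 and 9.84 under vehicle. Its neighbourhood was lower by 0.64 on slide 2 (local median -0.64) and its difference after removal was 0.331 (unadjusted p = 0.0862 in limma), opposite in sign to the -0.09 before it. Plxnd1, the endothelial plexin, read 10.68 and 10.50 under sunitinib, against 10.69 and 10.55 under vehicle. Its difference was -0.03 with a 95% interval of -0.305 to 0.245. Plxna2 differed by 0.175 on its brightest probe.

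In the netrin system the receptor Unc5b, which endothelial tip cells carry and which restrains sprouting in mouse, was the member with the second largest difference. It read 11.03 and 10.76 under sunitinib, against 11.28 and 11.57 under vehicle, so that both sunitinib arrays lay below both vehicle arrays. The difference was -0.53 (SE 0.149, limma unadjusted p = 0.0167, adjusted p = 0.352), with -0.25 on slide 1 and -0.81 on slide 2. After removal of the local trend it was -0.598 (SE 0.17, limma unadjusted p = 0.0119), with -0.225 on slide 1 and -0.97 on slide 2. With the slide as a block, the unadjusted p in limma was 0.0587 before and 0.0174 after the removal. Of the other receptors, Unc5a differed by -0.19, Unc5c by 0.225 and Unc5d by -0.115. The ligands were dim: Ntn1 differed by -0.21 and Ntn4, a netrin of basement membranes, by 0.08. After removal of the local trend Ntn1 stood at -0.225 (unadjusted p = 0.0394 in limma) and Ntn4 at 0.049. A dimmer Ntn1 probe differed by 0.01.

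Ntng1, a lipid-anchored netrin that does not bind Unc5 receptors, gives a yardstick for dim features, since 1 of its probes was spotted 10 times. These spots ranged from 8.72 to 8.95 and from 8.65 to 9.01 on the sunitinib arrays, against 8.65 to 8.89 and 8.64 to 9.07 on the vehicle arrays. The difference computed spot by spot ran from -0.105 to 0.125 with an SD of 0.073. Copies of 1 sequence on the same arrays thus spread as widely as most differences among the brightest probes of the class 3 semaphorins.

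Slit3, a secreted ligand of Robo receptors, read 12.04 and 11.94 under sunitinib, against 12.31 and 12.51 under vehicle. The groups did not overlap, and the difference was -0.42 (SE 0.105, limma unadjusted p = 0.011, adjusted p = 0.352), with -0.27 on slide 1 and -0.57 on slide 2. A second probe read 10.87 and 10.53 under sunitinib, against 11.27 and 11.08 under vehicle, a difference of -0.475 (unadjusted p = 0.0237 in limma). The last probe, a dim one, differed by 0. Removal of the local trend left -0.488 for the first probe (unadjusted p = 0.021 in limma) and -0.19 for the second (unadjusted p = 0.171 in limma). Slit2 read 10.19 and 9.75 under sunitinib, against 10.08 and 10.28 under vehicle, and its slides had opposite signs (0.11 and -0.53). Its difference of -0.21 was -0.399 after removal of the local trend (unadjusted p = 0.0617 in limma). Slit1 differed by -0.125.

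Robo4, the Robo receptor of endothelium, read 13.29 and 13.31 under sunitinib, against 13.15 and 13.05 under vehicle. Both sunitinib arrays were higher, by 0.20 on the log2 scale (95% interval -0.018 to 0.418, limma unadjusted p = 0.0644). The local medians were 0.105 on slide 1 and 0.225 on slide 2, and 0.035 was left after their removal. Robo1 differed by 0.065 and Robo2 by 0.015.

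**Figure D3:**
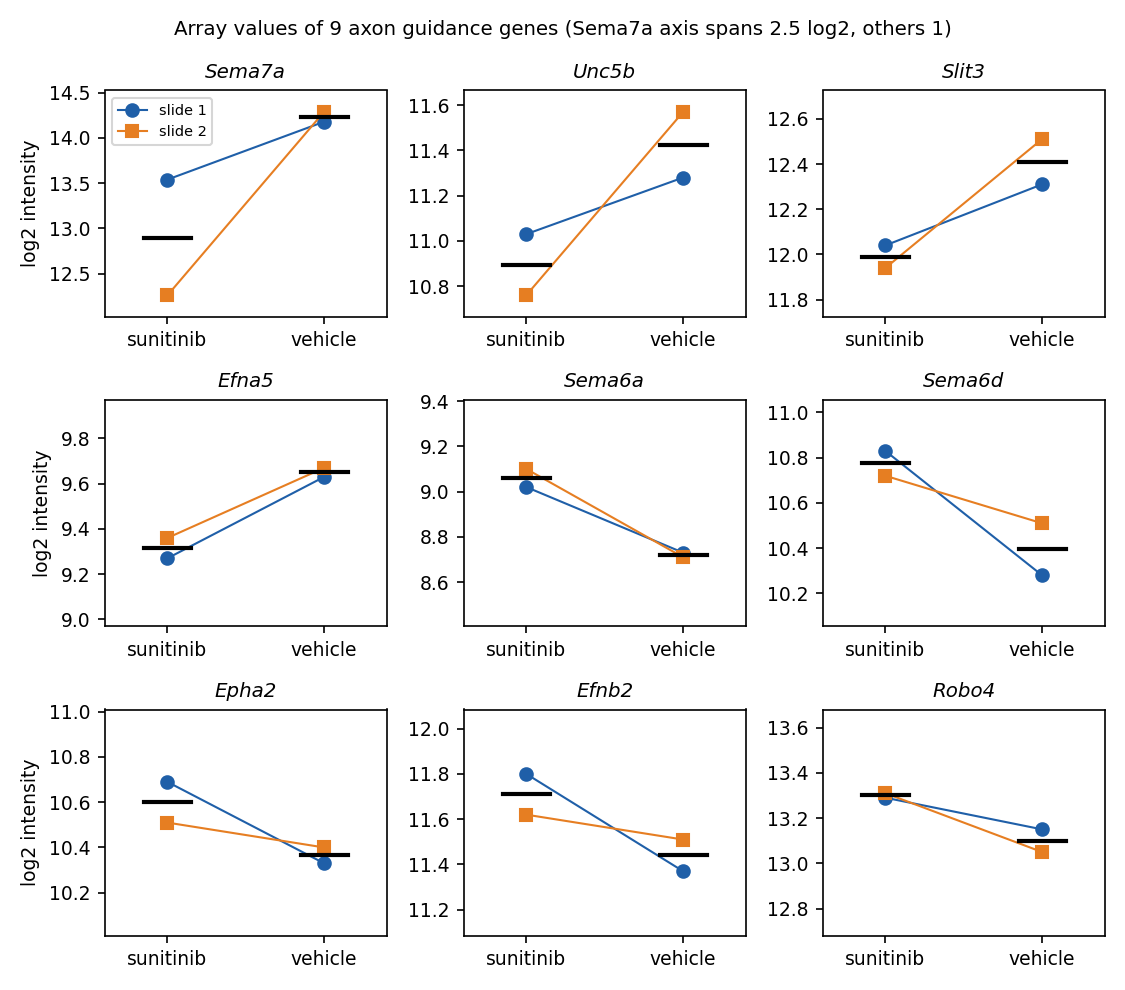
Deposited log2 intensity of 9 axon guidance genes on each array, sunitinib at left and vehicle at right of each panel, with a line joining the arrays of 1 slide; the Sema7a axis spans 2.5 log2 units and the others 1. Sema7a, Unc5b and Slit3 are lower with sunitinib on both slides, by unequal amounts.

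Ephrin-A ligands are anchored to the membrane and bind EphA receptors on neighbouring cells. Efna5 read 9.27 and 9.36 under sunitinib, against 9.63 and 9.67 under vehicle, with no overlap and a difference of -0.335 (SE 0.084, limma unadjusted p = 0.0107). A dimmer probe of the gene gave 0.095, and the first gave -0.20 after removal of the local trend (unadjusted p = 0.0438 in limma). Efna2, a dim gene, differed by -0.34, and Efna1, the main ligand of EphA2, by 0.095.

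Of the 9 EphA receptors, 7 read above vehicle, and the family median was 0.19, but it was 0.035 after removal of the local trend. Epha2, which endothelial cells use in response to ephrin-A1, read 10.69 and 10.51 under sunitinib, against 10.33 and 10.40 under vehicle. The groups did not overlap, the difference was 0.235 (unadjusted p = 0.065 in limma), and 0.294 (unadjusted p = 0.026 in limma) was left after the removal. Epha8, a dim gene, differed by 0.21 and by 0.264 (unadjusted p = 0.0168 in limma) after removal. Epha4, a receptor for ephrins of both classes, had 2 probes that parted. The brightest differed by 0.19, and by 0.005 after removal of the local trend. The other read 9.21 and 8.76 under sunitinib, against 9.56 and 9.64 under vehicle, a difference of -0.615 that became -0.306 after removal.

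Efnb2, the arterial ephrin, read 11.80 and 11.62 under sunitinib, against 11.37 and 11.51 under vehicle. Its groups did not overlap, its difference was 0.27 (unadjusted p = 0.0531 in limma) and it was 0.134 after removal. Efnb1 read 10.40 and 10.34 under sunitinib, against 10.25 and 10.20 under vehicle. Ephb4, the venous receptor of ephrin-B2, read 9.91 and 9.90 under sunitinib, against 9.69 and 9.75 under vehicle, a difference of 0.185. A dimmer Ephb4 probe differed the other way, by -0.365 (unadjusted p = 0.0134 in limma). The other EphB receptors lay between -0.115 and 0.01.

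**Figure D4:**
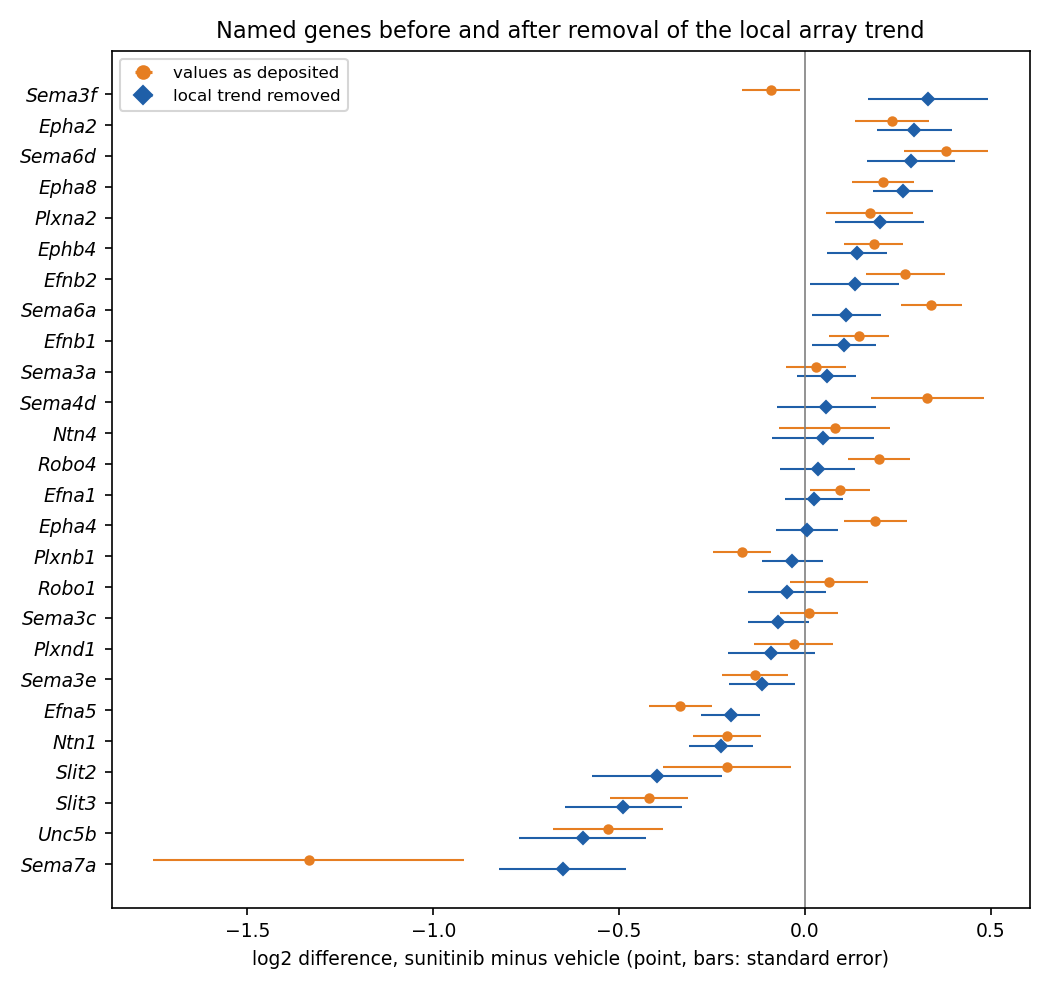
Log2 difference, sunitinib minus vehicle (point and standard error), of the named genes in the deposited values (orange) and after removal of the local trend (blue). Sema7a moves to -0.652, Unc5b and Slit3 keep their size at -0.598 and -0.488, and Robo4, Sema4d and Sema6a come to 0.035, 0.058 and 0.112.

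Of the 67 genes, 32 had 1 probe and 35 had several. For 9 genes (Epha4, Epha6, Ephb4, Plxna2, Plxna4, Plxnb1, Plxnc1, Sema3e and Slit2), the brightest probe differed by at least 0.1 one way and another probe by at least 0.1 the opposite way. The other 2 probes of Plxna2, a receptor of Sema6a, differed by 0.395 and -0.24. For these genes the direction depends on the probe chosen to stand for the gene. Only for Epha4 and Plxna2 were opposite probes both above the median level of all genes. For the others, the probe that went the opposite way was at or below it. The Slit2 probes above that level differed by -0.21 and -0.515.

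**Figure D5:**
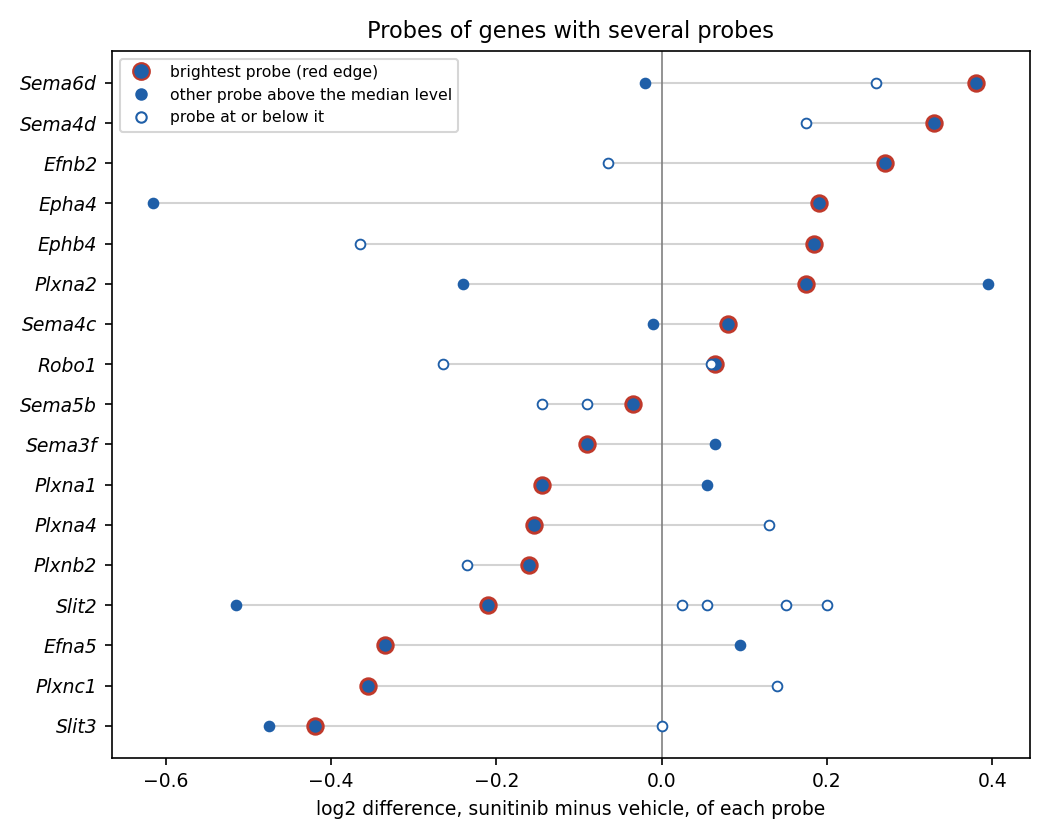
Log2 difference, sunitinib minus vehicle, of each probe of the genes with several probes shown, with a red edge on the brightest probe and open points at or below the median level of all genes. The Epha4 probes stand at 0.19 and -0.615 and the first 2 Slit3 probes at -0.42 and -0.475.

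The promoters of Sema7a, Unc5b and Slit3 are shown because these were the members lower by most on both slides that were above the median level. Each line is the 250 bases before the annotated start, 5′ to 3′ on the gene's strand, from RefSeq on GRCm38.p6. Capitals mark matches to GGGCGG or CCGGAA on either strand, where CCGCCC and TTCCGG are their reverse complements. The windows are chr9:57939862-57940111 on the plus strand for Sema7a, chr10:60831582-60831831 on the minus strand for Unc5b and chr11:35121206-35121455 on the plus strand for Slit3.
Sema7a: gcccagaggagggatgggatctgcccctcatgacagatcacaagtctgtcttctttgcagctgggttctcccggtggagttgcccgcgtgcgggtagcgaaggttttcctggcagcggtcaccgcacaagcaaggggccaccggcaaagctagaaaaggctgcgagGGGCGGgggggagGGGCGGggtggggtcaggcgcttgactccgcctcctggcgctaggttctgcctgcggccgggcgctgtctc
Unc5b: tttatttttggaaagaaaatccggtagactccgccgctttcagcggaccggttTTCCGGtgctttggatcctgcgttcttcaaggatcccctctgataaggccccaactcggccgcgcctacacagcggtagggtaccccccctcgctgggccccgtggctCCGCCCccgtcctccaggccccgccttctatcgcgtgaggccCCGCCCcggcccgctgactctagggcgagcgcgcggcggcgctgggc
Slit3: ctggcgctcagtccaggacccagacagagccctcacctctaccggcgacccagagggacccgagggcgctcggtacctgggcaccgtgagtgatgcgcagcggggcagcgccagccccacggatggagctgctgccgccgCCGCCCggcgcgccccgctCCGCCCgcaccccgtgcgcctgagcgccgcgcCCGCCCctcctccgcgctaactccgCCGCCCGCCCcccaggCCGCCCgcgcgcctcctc
Sema7a held 2 GGGCGG matches, Unc5b 2 and Slit3 6, of which some overlap, and Unc5b also held 1 CCGGAA match. In windows of 300 bases (250 before to 50 after the start), GGGCGG was in 70.3% of 74 member promoters, which came from 58 matched genes, and in 35.7% of 32851 promoters. CCGGAA was in 9.46% of member promoters and 14.9% of all promoters, and ACGTG in 17.6% of member promoters and 19.6% of all. CACGTG, which contains ACGTG, was in 6.76% of member promoters and 7.15% of all, and TGACTCA in 2.7% of member promoters and 5.2% of all. A match describes these letters only.

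Partners of these families outside the gene set were taken from a list of 14 co-receptors and 37 proteins inside the cell. None of the 14 co-receptors had an unadjusted p under 0.05 (limma), and their median difference was 0.025. Nrp1 and Nrp2, the neuropilins that hold class 3 semaphorins, differed by 0.045 and 0.29, and the netrin receptors Dcc and Neo1 by -0.055 and 0.115. Of the 34 measured proteins inside the cell, 1 was higher and 5 were lower at an unadjusted p under 0.05 in limma, where 8.44% and 6.32% of all genes were. Rgs3, which binds B-type ephrins, differed by 0.34, and by 0.169 after removal of the local trend (unadjusted p = 0.157 in limma). Dpysl2 and Dpysl3, the collapsin response mediators of semaphorin signalling, differed by -0.265 and -0.345 and by -0.28 and -0.383 after removal of the local trend. Mical2, an actin-oxidising enzyme, differed by -0.49 (-0.389 after removal), Cdk5 by -0.325 (-0.115) and Enah by -0.30 (-0.034).

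Markers of other cell types were read beside these genes. The pericyte gene Pdgfrb read 13.39 and 12.12 under sunitinib, against 14.06 and 14.01 under vehicle. As for Sema7a, both sunitinib arrays were below both vehicle arrays and the second was the lowest. Its difference of -1.28 was -0.899 after removal of the local trend. Of the 9 pericyte markers, 6 were below 0 and 3 above it (Notch3 by 0.445, Myh11 by 0.125 and Des by 0.082), with a list median of -0.058. Besides Pdgfrb, those below 0 were Kcnj8 (-0.995), Abcc9 (-0.44), Rgs5 (-0.115), Acta2 (-0.058) and Cspg4 (-0.05). After removal of the local trend Kcnj8 stood at -0.471 and Abcc9 at -0.03. At an unadjusted p under 0.05 in limma, 3 of the 9 were lower and 0 higher, where 6.32% and 8.44% of all genes were. Over these markers the mean log2 level was 10.94 and 10.64 under sunitinib, against 11.10 and 10.99 under vehicle. The 5 fibroblast markers averaged 12.31 and 12.28 under sunitinib, against 13.08 and 12.30 under vehicle. Of these, 4 were below 0 and 1 above it, and 3 were lower on both slides. Those 3 were Pdgfra (-0.785, and -0.711 after removal of the local trend), Lum (-0.775, and -0.969 after) and Col1a1 (-0.08). Dcn (-0.34) and Dpt (0.025) had opposite signs on the slides. The 4 fat markers averaged 11.65 and 11.56 under sunitinib, against 10.40 and 9.93 under vehicle. Of 9 markers of nerve and Schwann cells 6 were measured, averaging 9.58 and 9.40 under sunitinib, against 9.80 and 9.71 under vehicle. Of these, 5 were below 0 and 1, Tubb3, was above it (0.143), and 3 were lower on both slides. Ngfr differed by -0.775, the most of the 6, and Uchl1 by -0.355. Mbp differed by -0.335, but by 0.218 after removal of the local trend. S100b was dim and had opposite signs on the slides (0.31 and -0.64). Sox10, a defining gene, was dim. The part of these cell types in the differences of Sema7a, Unc5b and Slit3 was not tested.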

How the data were processed

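Total RNA of whole xenograft tumours was measured on single-colour arrays with mouse probes, in a sunitinib and a vehicle group of 2 samples each. Per feature and array, the authors deposited 1 log2 value. Limma was used upstream, per the submitters' processing notes, while the normalization and any background step are not given in the sources used. That the scale is log2 follows from the range of the values, and no further scaling was applied. Gene names came from the platform annotation, and symbols were brought up to date through RefSeq gene numbers (GRCm38.p6). Features with the same gene and accession in at least 8 copies were combined by their median (217 probes). The probe with the highest mean stood for its gene.

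Sunitinib was compared with vehicle by lmFit and eBayes in limma 3.58.1 (R 4.3.3) over 43154 tested values, with Benjamini-Hochberg adjustment over all of them and a threshold of 0.05. The fit was tested on simulated data. The spread behind the p-values is that between these samples and may be technical only, and an exact permutation test of 2 against 2 arrays cannot go below 0.333. The number of arrays limits the precision. The members, lists and tests were chosen with earlier results of these data known. Named genes were members with an unadjusted p under 0.05, slides that had equal sign, and a level above the median of all genes, the member of smallest p in each family, 22 genes with a part in vessels, and genes whose bright probes differ in sign. Of the 22 names, 20 were measured, and the other 2 are not analysed here, which left 26 named genes. Genes named besides these were chosen after their values were seen.

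Samples with 1 replicate number shared a slide, by the array titles, and are paired by it. Same-slide deviations from the group means correlated at -0.225 over the tested values. The slide as a block, other scalings, position corrections, probe choice and leaving out each array were tried as alternatives.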

Additional observations from a re-analysis of the deposited data

How the results depend on the processing

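Adjusted calls among members stayed at 0 in every fit, including those with the replicate block for the slide that pairs the samples. At an unadjusted p under 0.05 in limma, 2 members were higher and 3 lower with the block alone (5.83% and 4.2% of all genes). With the block and the position trend removed, 3 were higher and 4 lower (5.14% and 5.09% of all genes). With the block and the local trend removed, 2 were higher and 3 lower (5.09% and 5.12% of all genes). With the block alone, the unadjusted p was 0.0452 for Sema7a, 0.0367 for Slit3, 0.0368 for Sema4d, 0.0587 for Unc5b and 0.0562 for Sema6d. No fit turned the sign of Sema7a (-1.975 to -0.652), Unc5b (-0.687 to -0.385), Slit3 (-0.52 to -0.298), Efna5, Sema6a, Sema6d or Epha2. The groups of each of these genes did not overlap in the deposited values, so leaving out an array could not turn the sign. Several of them were also named for equal signs on the slides. In all, 15 of 26 named genes kept their sign in every fit, a count that this choice of genes favours.

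Removal of the position trend, with or without the block, put the median over members at -0.018 (-0.053 on slide 2), EphA at 0.008, ephrin-A at -0.016, ephrin-B at 0.099, Sema3c at -0.093, Sema3f at 0.09 and Efna1 at -0.016. The mean of all probes put the median over members at -0.012, class 3 semaphorins at 0.024, the plexins at -0.013, Robo at -0.01, EphA at -0.02, ephrin-B at 0.103, Sema3e at 0.086, Ephb4 at -0.09, Robo1 at -0.047, Sema3a at -0.037 and Epha4 at -0.212. Removal of the local trend of like brightness, chosen after seeing the data, put the median over members at -0.026 (-0.025 on slide 2), Robo at -0.048, EphA at 0.035, ephrin-B at 0.105, Robo1 at -0.048, Sema3c at -0.071 and Sema3f at 0.331, with or without the block. The cause of these shifts was not tested.

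With each array left out in turn, which leaves 1 array in a group that is taken to vary like the other group, the count lower at an unadjusted p under 0.05 ran from 0 to 7 and the count higher from 1 to 4. Members whose groups did not overlap numbered 22 to 26 higher and 23 to 27 lower, since fewer arrays overlap less. The share of all genes without overlap is not given for these fits. These counts therefore do not show whether members differ from other genes. The median over members ran from -0.025 to 0.02, the netrins from -0.092 to 0.008, class 3 semaphorins from -0.052 to 0.015, Unc5 from -0.26 to -0.045, the plexins from -0.1 to -0.04, Slit from -0.43 to -0.14 and Robo from 0.115 to 0.16. Among genes whose sign turned, Ntn4 ran from -0.075 (without sunitinib replicate 1) to 0.235, Robo1 from -0.03 (without sunitinib replicate 1) to 0.16, Plxnd1 from -0.12 to 0.06 (without sunitinib replicate 2), Slit2 from -0.43 to 0.01 (without sunitinib replicate 2) and Sema3a from -0.01 (without vehicle replicate 1) to 0.07.

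Groups of 2 arrays allow no check for a single outlying array. Times of sampling and separate animals are not given by the labels.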
